A study of Mus musculus with 12 samples.

Results

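The expressed long noncoding transcripts of mouse naive and germinal center (GC) B cells are described here. They are the symbols of the deposited table whose RefSeq records are all noncoding, each represented by its highest transcript, with a length of at least 500 bases and a mean of at least 20 RPKM over the 12 libraries. Symbols on the X and Y chromosomes and names with -ps were left out. This rule kept 253 of 24063 symbols. The table held 3438 symbols with noncoding records only, 2040 of these had the length, 272 also had the level, and 7 sex-linked symbols and 12 -ps names were then removed. Since the mean over the 12 libraries chose the members, their levels are a description and were not tested against other genes. The members just inside the level threshold were 5830417I10Rik (20.4), 1700008J07Rik (20.2) and 5031434O11Rik (20.002), and those just outside were A430035B10Rik (19.7), Chd3os (19.7) and 4930506C21Rik (19.5).

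RNA was sequenced from sorted spleen B cells of C57BL/6 mice aged 8 to 10 weeks, in 4 groups of 3 libraries. WT naive and B-KO naive libraries came from B220+ B cells of unimmunized mice, and WT GC and B-KO GC libraries from B220+PNA+GL7+ cells taken 14 days after sheep red blood cell (SRBC) immunization. B-KO mice carried a floxed miR-146a allele deleted by CD21-cre, which acts from the mature B cell stage on and not in T cells, and WT mice were littermates. The paper's methods give 3 biological replicates per cell population. The labels do not say that the 3 libraries of a group came from separate mice, so p-values measure the spread between libraries. Values below are given in the order of replicates 1, 2 and 3. The table calls its values RPKM, but they were scaled to a total of 10000000 per library, so each is 10-fold above the usual unit.

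Libraries held 22945635 to 39118222 assigned reads, recovered from the values. Of the 6 GC B cell markers, all were in the table, and their summed RPKM was 6155 to 7025 in WT GC and 5305 to 7253 in B-KO GC against 259 to 446 in WT naive and 381 to 1207 in B-KO naive libraries, so the GC and naive labels matched their markers. The summed naive B cell markers were 2390 in WT GC replicate 3 and 3133 in B-KO GC replicate 2, against 1216 to 1454 in the other 4 GC libraries. Y-linked genes summed to 1180, 850.0 and 674 RPKM in WT GC replicate 3 and B-KO GC replicates 1 and 2, against at most 5.96 elsewhere. The macrophage list summed to 376, 507 and 464 in these 3 libraries against 116 to 211 in the others. Of this list, C1qa, C1qb and Csf1r were at 35.8 to 134 there against 2.13 to 11.1 in the others. Cd68 and Marco were also higher there. Lyz2, Emr1 and Itgam overlapped the others, with Lyz2 at 25.7 and Itgam at 7.55 in B-KO GC replicate 1. The X-linked RNA Xist was at 0.93, 0.454 and 187 RPKM in the same 3 libraries with Y-linked reads, against 854 to 1436 elsewhere. B-KO GC replicate 2 thus held both Xist and Y-linked reads. The labels give no sex. Only GC libraries had these Y-linked sums, and more of B-KO than of WT mice, so they were not balanced over the groups. The miR-146a row held 0 to 4 reads in every library, which checks nothing about the deletion. Leaving out the 3 libraries with Y-linked reads keeps B-KO GC replicate 3 as the only B-KO GC library. Values given below with B-KO GC replicate 3 alone come from that fit, where its spread is assumed to be that of the other groups, so a p or a lost call there rests on 1 library. T and NK cell markers summed to 70.8 to 195 in naive and 11.4 to 48.5 in GC libraries, and red cell and platelet markers to 366 to 457 in WT naive, 593 to 1101 in B-KO naive and 28.7 to 277 in GC libraries. Plasma cell markers summed to 884 to 1489 in WT naive, 1748 to 4429 in B-KO naive and 3522 to 6320 in GC libraries. Igj carried most of these differences, at 137 to 696, 900 to 3443 and 2852 to 4908 in the same order. Xbp1 and Prdm1 went with the sum. Sdc1 went the other way, at 27.5 to 65.3 in naive and 6.36 to 24.1 in GC libraries. Irf4 was at 326 to 414 in naive and 135 to 579 in GC libraries. The part of these differences in the results below was not tested beyond the values given without those libraries.

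Long noncoding RNAs are mostly spliced, capped transcripts without a long reading frame. Some stay in the nucleus and scaffold nuclear bodies, some carry small nucleolar RNAs (snoRNAs) or microRNAs that are cut out of them, and many start beside or opposite a coding gene. In B cells the transcripts that carry microRNAs are the best known, because the released microRNAs limit or promote proliferation in the GC reaction.

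The rule selected on RefSeq record type, and the members were of several kinds. The table's annotation called 218 of them ncRNA, 34 pseudogene and 1 (Rn45s) rRNA. A later RefSeq annotation called 203 lncRNA, 33 transcribed pseudogene and 7 protein-coding, and 10 had no match. Their transcript lengths ran from 515 to 9815 bases with a median of 1535. A GENCODE transcript was matched to 198 members. Exon bases lay in coding exons by at least 10% in 90 members, by under 10% in 18 and by none in 110, and 35 could not be assigned. A coding gene started within 1000 bases in the divergent direction beside 49 members. The label of long noncoding RNA therefore fits 203 of 253 members by current annotation. The 7 that are now protein-coding are 0610012G03Rik, 1810058I24Rik, 2610001J05Rik, BC029722, Btbd19, Gm10509 and Rhno1, and the 10 with no match include Rn45s, 6430706D22Rik and C230091D08Rik, described below. Reads of a gene and of its antisense partner cannot be told apart here, since neither the kit nor the counting is stated to use strand. Of the 34 pseudogenes, 12 lie in the span of another coding gene on the same strand, and 4 members (Gm1821, Gm5512, Gm5643 and Gm5801) have more than 1 genome copy, so their values are uncertain.

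Members that carry microRNAs are shown by the mature microRNAs they release, since these are the known products of the transcripts. Sequences are from RefSeq (GRCm38.p6), 5′ to 3′, with the seed (bases 2 to 8) in capitals. Mir17hg is the host of a 6-microRNA cluster on chromosome 14. Only miR-92a lies inside the row used for Mir17hg, and the others lie 10 to 684 bases upstream of its start.
miR-17-5p: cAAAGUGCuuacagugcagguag
miR-20a-5p: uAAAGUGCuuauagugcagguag
miR-18a-5p: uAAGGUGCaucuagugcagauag
miR-19a-3p: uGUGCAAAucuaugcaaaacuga
miR-19b-3p: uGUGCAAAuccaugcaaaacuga
miR-92a-3p: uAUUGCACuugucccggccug
miR-15a-5p: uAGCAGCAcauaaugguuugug
miR-16-5p: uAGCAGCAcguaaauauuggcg
miR-22-3p: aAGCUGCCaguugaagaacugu
miR-101a-3p: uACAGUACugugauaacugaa
Dleu2 is the host of miR-15a and miR-16, Mir22hg of miR-22, and the row of E130102H24Rik contains miR-101a. By shared seed, miR-17 pairs with miR-20a, miR-19a with miR-19b and miR-15a with miR-16, while the other 4 have a seed of their own. The libraries were not built to count mature microRNAs, so all values below are of the host transcripts.

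Levels of the members were uneven. The 8 highest held 39.3% of the summed mean RPKM of 32759, and Rn45s alone held 20.2%. The median of the 253 means was 48.4 RPKM, 63 members had a mean of at least 100, 11 of at least 500, and 94 of under 40. Without Rn45s, the summed RPKM of the members was 28294, 28348 and 28547 in WT naive, 27197, 28807 and 29133 in B-KO naive, 23274, 23635 and 23782 in WT GC and 23710.0, 24478 and 24325 in B-KO GC libraries. All 6 GC libraries lay below all 6 naive libraries, while WT and B-KO sums overlapped within each cell type. The group with the highest mean was WT naive for 90 members, B-KO naive for 61, WT GC for 53 and B-KO GC for 49. At least 20 RPKM was reached in all 4 groups by 199 members, in both GC groups alone by 19 and in both naive groups alone by 20.

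Between GC and naive B cells, 154 of the 253 members (60.9%) were called in WT mice at an adjusted p under 0.05 by limma on log2(RPKM + 1), the scale of every fold change below, 62 higher and 92 lower. The background was 62% of all symbols tested (31.7% higher and 30.2% lower), so the share of members called was near it, while 24.5% of the members were higher and 36.4% lower. The median log2 fold change of the members was -0.14 and that of all symbols 0.01. In B-KO mice 143 members (56.5%) were called, 57 higher and 86 lower, against a background of 57.5% (30% higher and 27.5% lower). Differences of at least 2-fold among the called members numbered 25 rises and 37 falls in WT and 21 and 32 in B-KO mice. The share of all symbols past the same 2-fold cut was not computed, so these counts do not set the members apart. GC and naive libraries did not overlap for 164 members in WT and 159 in B-KO mice, where the background was 67.3% and 64.1% of all symbols. Both genotypes called 132 members, all in the same direction, 53 higher and 79 lower. These were 85.7% of the WT calls and 92.3% of the B-KO calls, against 84.7% and 91.2% over all symbols. These comparisons share no libraries, and across the members the log2 fold changes had r = 0.97. Without WT GC replicate 3 and B-KO GC replicate 2, the libraries with the most naive B cell markers, 155 and 147 members were called. The background in that fit was 8660 and 8243 of all 13704 symbols. Those 2 libraries were the nearest to naive for 47 of 62 higher and 44 of 92 lower members in WT mice, and for 42 of 57 and 40 of 86 in B-KO mice.

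**Figure D1:**
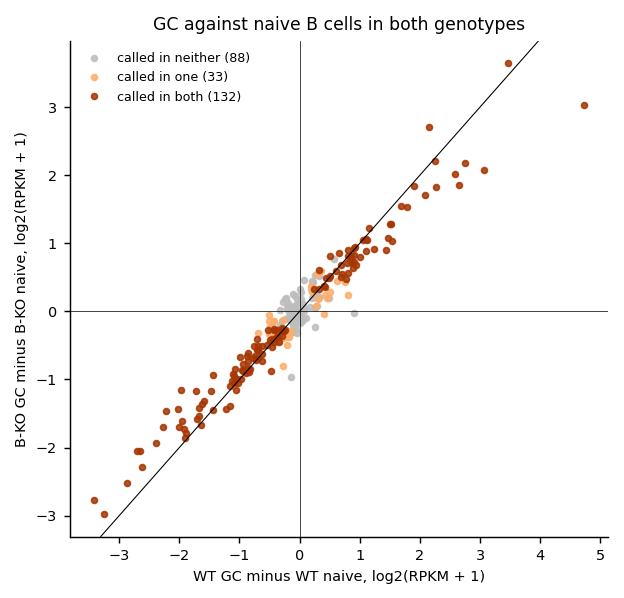
Log2 difference of GC minus naive B cells in WT mice (x axis) and in B-KO mice (y axis) for the 253 members, with 1 point per member, colours for the calls and a line of equality. The points lay along the line, with r = 0.97, and no member was called in opposite directions.

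Rn45s, the precursor of the large ribosomal RNAs, was the highest member and the most variable of the 8. It was at 4176, 7045 and 4843 in WT naive, 4571, 5209 and 4575 in B-KO naive, 9183, 6764 and 15019 in WT GC and 11772, 4467 and 1957 in B-KO GC libraries. The GC libraries spread over a wider range than the naive libraries and overlapped them in both genotypes. The log2 fold change of GC over naive was 0.9 in WT (standard error 0.52, adjusted p = 0.156) and -0.03 in B-KO mice (standard error 0.52, adjusted p = 0.968), and neither passed the limma test. With B-KO GC replicate 3 alone it was -1.29 in B-KO mice (adjusted p = 0.006). Its share of the assigned reads ran from 0.114% to 0.876%. Whether reads of this row of 5832 bases came from precursor or from mature ribosomal RNA was not tested. The labels name total RNA and the methods poly-A RNA, so its level may also reflect library preparation, which was not tested.

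Malat1, an abundant RNA of nuclear speckles, was the second member. It was at 2347, 2038 and 2053 in WT naive, 1614, 2419.7 and 2424 in B-KO naive, 824, 761 and 1726 in WT GC and 1016, 1244 and 688 in B-KO GC libraries. GC libraries lay below the naive libraries of the same genotype, and WT GC replicate 3 was the highest of the GC libraries. Its log2 fold change was -1.06 in WT (standard error 0.31, adjusted p = 0.0107) and -1.15 in B-KO mice (standard error 0.31, adjusted p = 0.00774) by limma. Without WT GC replicate 3 the WT value was -1.43. Neat1 is an RNA of paraspeckles. The row used for it is 3176 bases long, and other forms of Neat1 were not measured apart from it. Neat1 was at 918, 1240.2 and 893 in WT naive, 837, 1079 and 1331 in B-KO naive, 227, 219.5 and 387 in WT GC and 189, 493 and 272 in B-KO GC libraries. All 6 GC libraries lay below all 6 naive libraries. On the log2 scale the difference was -1.9 in WT (standard error 0.33, adjusted p = 0.000479) and -1.85 in B-KO mice (standard error 0.33, adjusted p = 0.000702). Tug1, a nuclear lncRNA, had a smaller difference. It was at 350.3, 338 and 336 in WT naive, 312, 343 and 331 in B-KO naive, 275, 293 and 267 in WT GC and 253, 269 and 297 in B-KO GC libraries, and the 6 GC libraries again lay below the 6 naive libraries. GC over naive gave a log2 fold change of -0.3 in WT (standard error 0.07, adjusted p = 0.00304) and -0.27 in B-KO mice (standard error 0.07, adjusted p = 0.0061). With B-KO GC replicate 3 alone, the highest of its group, the B-KO value was -0.15 (adjusted p = 0.143). Of the listed nuclear lncRNAs, only these 3 were members. The others on the list were absent or below the level threshold, so the list as a class was not described. All 3 fell in both genotypes, with a median of -1.06 in WT and -1.15 in B-KO mice. Over all symbols tested, the median was 0.01 and 0.02, and 30.2% and 27.5% were called lower. In bulk RNA, fewer cells that express a transcript and less of it per cell cannot be told apart.

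Of the other high members, 6430706D22Rik is given with the rises below. Gm15772 is a pseudogene row in the span of Rpl26, a ribosomal protein gene. It was at 1350.5, 1134 and 1453 in WT naive, 1393, 1263 and 1535 in B-KO naive, 933, 995 and 937 in WT GC and 1081, 1103 and 984 in B-KO GC libraries, with all 6 GC libraries below the naive ones, and its log2 fold change of -0.45 in WT mice was close to that of Rpl26 (-0.45). Gm1821, now called Ubb-ps, a ubiquitin pseudogene in the span of Ubb, was at 737, 660.4 and 706 in WT naive, 724, 678 and 737 in B-KO naive, 758, 820.4 and 841 in WT GC and 957, 887 and 776 in B-KO GC libraries. All 6 GC libraries were above the naive ones, and its log2 fold change was 0.2 in WT (standard error 0.08, adjusted p = 0.0536) and 0.29 in B-KO mice (standard error 0.08, adjusted p = 0.0115). The B-KO value was 0.12 (adjusted p = 0.281) with B-KO GC replicate 3 alone, the lowest of its group. Neither pseudogene could be told apart from its coding relative. 0610039K10Rik, which shares 14.1% of its exon bases with Serinc3 on the opposite strand, was at 980.3, 709.9 and 921 in WT naive, 858, 797 and 732 in B-KO naive, 495, 526 and 589 in WT GC and 588, 567 and 463 in B-KO GC libraries. It fell in both genotypes, with no overlap of the 6 GC and 6 naive libraries, and its log2 fold change was -0.69 in WT (standard error 0.13, adjusted p = 0.000888) and -0.57 in B-KO mice (standard error 0.13, adjusted p = 0.00353).

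**Figure D2:**
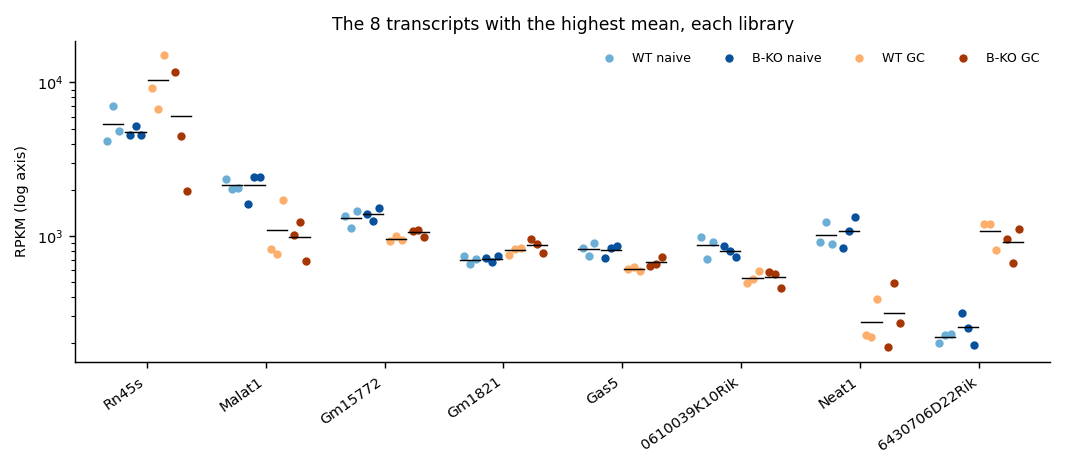
RPKM (log axis) of the 8 members with the highest mean, with 1 point per library in each of the 4 groups and a bar at each group mean. Malat1 and Neat1 were lower in GC than in naive libraries of the same genotype. The points of Rn45s ran from 1957 to 15019 RPKM and overlapped between GC and naive libraries within each genotype.

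Transcripts that carry snoRNAs in their introns form the best-defined family among the members, with 12 of the 22 listed host genes. Known hosts of this kind, like ribosomal protein genes, are often transcribed from a start within a run of pyrimidines. To show these starts, the 20 bases before and the 20 bases from the RefSeq start on are given (GRCm38.p6, transcript strand), with capitals for a run of a C followed by at least 4 bases that are each C or T, beginning within 10 bases of the start. Only the transcript strand was searched, and 10 of the 12 hosts were looked up. The windows were chr1:161035146-161035185 (plus strand) for Gas5, chr9:88522878-88522917 (minus strand) for Snhg5, chr2:26640225-26640264 (minus strand) for Snhg7, chr3:123508317-123508356 (minus strand) for Snhg8, chr4:132308658-132308697 (plus strand) for Snhg12, chr11:116671640-116671679 (plus strand) for Snhg16 (1810032O08Rik), chr11:6528741-6528780 (minus strand) for Snhg15 (Gm11974), chr2:158361490-158361529 (minus strand) for Snhg17 (9430008C03Rik), chr11:117076763-117076802 (plus strand) for Snhg20 (2810008D09Rik) and chr5:74093040-74093079 (plus strand) for Dancr.
Gas5: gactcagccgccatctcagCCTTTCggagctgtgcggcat
Snhg5: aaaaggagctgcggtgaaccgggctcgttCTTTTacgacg
Snhg7: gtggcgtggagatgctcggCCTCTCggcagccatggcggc
Snhg8: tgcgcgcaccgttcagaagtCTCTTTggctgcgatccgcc
Snhg12: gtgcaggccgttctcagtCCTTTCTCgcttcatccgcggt
Snhg16: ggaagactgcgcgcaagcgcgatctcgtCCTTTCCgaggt
Snhg15: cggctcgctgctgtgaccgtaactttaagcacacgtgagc
Snhg17: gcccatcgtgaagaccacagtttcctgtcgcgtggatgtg
Snhg20: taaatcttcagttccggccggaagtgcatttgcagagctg
Dancr: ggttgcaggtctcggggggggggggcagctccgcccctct
A run was present in 6 of the 10 windows, and in 30.7% of the 32851 promoters of the same table. This is a description, and no transcription start was measured.

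Among the 12 snoRNA hosts, 1 rose and 7 fell in WT GC B cells, and 4 did not pass the limma test (median -0.38). In B-KO GC B cells, 1 rose, 6 fell and 5 did not pass (median -0.23). The background was 31.7% of all 13704 symbols called higher and 30.2% called lower in WT mice, and 30% and 27.5% in B-KO mice. Snhg5 was the riser. It was at 231, 212 and 275 in WT naive, 263, 245 and 249 in B-KO naive, 515, 544 and 532 in WT GC and 589, 577 and 610.2 in B-KO GC libraries, with the 6 GC libraries all above the 6 naive libraries, and its log2 fold change was 1.15 in WT (standard error 0.08, adjusted p = 2.51e-06) and 1.22 in B-KO mice (standard error 0.08, adjusted p = 6.3e-06). Snhg20 (2810008D09Rik) fell the most of this list. It was at 279, 252 and 287 in WT naive, 232, 244 and 288 in B-KO naive, 134, 128 and 136 in WT GC and 118, 135 and 126 in B-KO GC libraries, with no overlap between GC and naive libraries. This was a log2 fold change of -1.04 in WT (standard error 0.09, adjusted p = 4.67e-06) and -1.0 in B-KO mice (standard error 0.09, adjusted p = 1.34e-05).

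Gas5, which carries many snoRNAs and accumulates in growth-arrested cells, was the highest of the hosts. It was at 831, 744 and 899.8 in WT naive, 715, 839.5 and 868 in B-KO naive, 614, 629 and 594 in WT GC and 635, 659 and 733 in B-KO GC libraries. WT GC libraries lay below WT naive libraries, while B-KO GC replicate 3 reached into the B-KO naive range. The log2 difference of GC over naive was -0.43 in WT (standard error 0.09, adjusted p = 0.00211) and -0.25 in B-KO mice (standard error 0.09, adjusted p = 0.0352). The B-KO call did not hold in 8 of the alternatives, and with B-KO GC replicate 3 alone it was -0.13 (adjusted p = 0.418). Leaving out B-KO naive replicate 2 or 3, or B-KO GC replicate 1 or 2, each took the adjusted p to 0.108, 0.126, 0.116 and 0.0817. Snhg12 was at 325, 281 and 293 in WT naive, 289.6, 291 and 281 in B-KO naive, 194, 190.4 and 245 in WT GC and 254, 242 and 218 in B-KO GC libraries, lower in every GC than in every naive library. Its log2 fold change was -0.52 in WT (standard error 0.10, adjusted p = 0.000923) and -0.27 in B-KO mice (standard error 0.10, adjusted p = 0.0359). The B-KO call was lost without B-KO naive replicate 1, 2 or 3 (adjusted p = 0.0776, 0.0873 and 0.0629) and without B-KO GC replicate 2 or 3 (0.0554 and 0.129), and with the replicate number as a block (0.0572).

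Snhg17 (9430008C03Rik) and Snhg7 fell in both genotypes. Snhg17 (9430008C03Rik) was at 72.8, 71.7 and 68.2 in WT naive, 67.3, 77.9 and 80 in B-KO naive, 49, 45.7 and 60.2 in WT GC and 47.6, 61.2 and 47.7 in B-KO GC libraries, with no overlap between GC and naive libraries. On the log2 scale the difference was -0.46 in WT and -0.52 in B-KO mice. Snhg7 was at 39.5, 38.2 and 44.2 in WT naive, 37.3, 40.3 and 31.3 in B-KO naive, 27.9, 22.1 and 17.1 in WT GC and 20, 26.6 and 23.9 in B-KO GC libraries, and the groups did not overlap. GC over naive gave a log2 fold change of -0.86 in WT (standard error 0.18, adjusted p = 0.00152) and -0.61 in B-KO mice (standard error 0.18, adjusted p = 0.0127). The B-KO call of Snhg7 was lost without B-KO naive replicate 2 (adjusted p = 0.0514) or B-KO GC replicate 1 (0.0517). C230091D08Rik, a part of the Snhg14 locus that shares 48.6% of its exon bases with Ube3a on the opposite strand, was at 75.2, 73.4 and 70.8 in WT naive, 73, 73 and 68.7 in B-KO naive, 56.2, 65 and 51.8 in WT GC and 47.2, 50.8 and 59.2 in B-KO GC libraries. The GC libraries were all lower, with log2 fold changes of -0.34 in WT and -0.45 in B-KO mice, and the WT call was lost without WT GC replicate 3 (-0.27, adjusted p = 0.051). The B-KO value was -0.27 (adjusted p = 0.0715) with B-KO GC replicate 3 alone, the highest of its group.

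Snhg8 was at 230.5, 215 and 275 in WT naive, 198, 232 and 298 in B-KO naive, 168, 155 and 212 in WT GC and 226, 230.1 and 196 in B-KO GC libraries. Its libraries did not overlap in WT mice and overlapped in B-KO mice. It fell in WT (-0.43, adjusted p = 0.0353), a call that was lost without WT naive replicate 1 or 3 or WT GC replicate 1 or 2 (adjusted p = 0.0611 to 0.13), and was at -0.14 in B-KO mice (adjusted p = 0.462). The difference between these 2 values was itself tested and was 0.29 (standard error 0.23, adjusted p = 1). The other 4 hosts passed in neither genotype. Snhg4 was at 41.7, 42.8 and 51.3 in WT naive, 40.3, 42.6 and 41.4 in B-KO naive, 64.6, 73.8 and 37.8 in WT GC and 45.4, 57.8 and 81.1 in B-KO GC libraries, with log2 fold changes of 0.32 and 0.52. Without WT GC replicate 3 it was at 0.60 in WT mice (adjusted p = 0.0231), and without B-KO GC replicate 1 at 0.71 in B-KO mice (adjusted p = 0.0371). The B-KO value passed in 5 alternatives and ranged from 0.30 to 0.95, the highest with B-KO GC replicate 3 alone. Snhg15 (Gm11974) was at 105, 123 and 131 in WT naive, 126, 139.7 and 153 in B-KO naive, 96, 95 and 161 in WT GC and 96.2, 196 and 117 in B-KO GC libraries, and was highest in WT GC replicate 3 and B-KO GC replicate 2. Snhg16 (1810032O08Rik) was at 93.1, 100.02 and 96.7 in WT naive, 89.8, 84.9 and 112 in B-KO naive, 73.8, 61.9 and 97.8 in WT GC and 87.8, 95.7 and 65.8 in B-KO GC libraries, and was -0.51 in WT mice without WT GC replicate 3 (adjusted p = 0.0207). Dancr was at 32.3, 40.3 and 35.9 in WT naive, 25.9, 30.8 and 34.6 in B-KO naive, 27.2, 27.6 and 35.1 in WT GC and 37.5, 29.4 and 33.1 in B-KO GC libraries, and its groups overlapped in both genotypes.

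**Figure D3:**
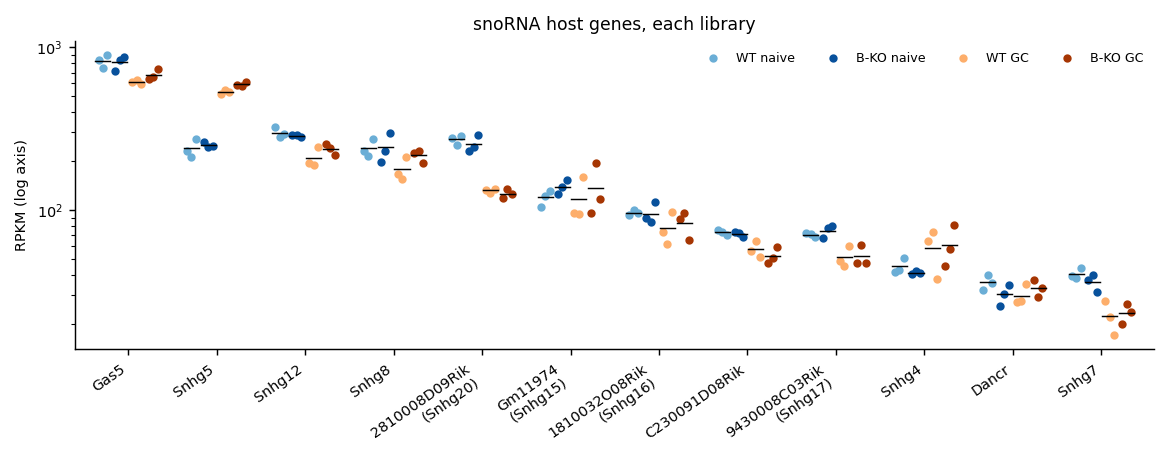
RPKM (log axis) of the 12 snoRNA host genes, with 1 point per library in each of the 4 groups and a bar at each group mean. Snhg5 was higher in all 6 GC libraries, Snhg20 was lower in all 6, and the points of Snhg15, Snhg16 and Dancr overlapped.

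Of the members that are listed as microRNA hosts, Mir17hg fell and Dleu2 rose in both genotypes. Mir17hg was at 137, 129.5 and 154 in WT naive, 105, 123 and 130.5 in B-KO naive, 86.3, 77.4 and 55.1 in WT GC and 41.7, 95.5 and 68.9 in B-KO GC libraries, with all 6 GC libraries below the naive ones. This was a log2 fold change of -0.95 in WT (standard error 0.25, adjusted p = 0.00697) and -0.86 in B-KO mice (standard error 0.25, adjusted p = 0.0133). Without B-KO GC replicate 1, the lowest library, the B-KO value was -0.55 (adjusted p = 0.0399). With Y-linked expression as a covariate it was -0.63, and the call was lost (adjusted p = 0.0557). The row of Mir17hg begins after most of its microRNAs and so measures the 3′ part of the primary transcript. Dleu2 was at 41, 35.3 and 44.5 in WT naive, 31.8, 36.3 and 47.8 in B-KO naive, 54.2, 75.2 and 46.7 in WT GC and 64.9, 63.6 and 75.3 in B-KO GC libraries, with GC above naive libraries in each genotype and B-KO naive replicate 3 above WT GC replicate 3. The log2 difference of GC over naive was 0.51 in WT (standard error 0.19, adjusted p = 0.0342) and 0.82 in B-KO mice (standard error 0.19, adjusted p = 0.00343). The WT call was lost in 6 alternatives, with 0.32 (adjusted p = 0.145) without WT GC replicate 2.

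Mir22hg differed in single libraries only. It was at 17.5, 16 and 17 in WT naive, 15.8, 25.5 and 22.5 in B-KO naive, 20.4, 15.5 and 91.3 in WT GC and 21.4, 101 and 19.7 in B-KO GC libraries. WT GC replicate 3 and B-KO GC replicate 2 stood several-fold above the other 4 GC libraries, which overlapped the naive range. Its log2 fold change was 0.84 in WT (adjusted p = 0.298) and 0.73 in B-KO mice (adjusted p = 0.373), and without each of those libraries 0.08 and -0.02. They are the same 2 libraries that had the highest naive B cell markers, and the part of this in the values was not tested. Pvt1, which lies beside the Myc gene, was at 20.5, 21.7 and 20.2 in WT naive, 27.4, 30.3 and 19.5 in B-KO naive, 34.1, 39.2 and 30.7 in WT GC and 36.7, 38.6 and 36.8 in B-KO GC libraries. All GC libraries were above all naive ones, with a log2 fold change of 0.7 in WT (standard error 0.16, adjusted p = 0.00233) and 0.54 in B-KO mice (standard error 0.16, adjusted p = 0.0111). With B-KO GC replicate 3 alone the B-KO value was 0.52 and did not pass (adjusted p = 0.0922). Mirt1 (5830416P10Rik) is on the same list although no microRNA is known to be cut from it. It was at 119.9, 133 and 94.3 in WT naive, 91.3, 121 and 102 in B-KO naive, 87.1, 89.8 and 75.9 in WT GC and 102, 77.9 and 105 in B-KO GC libraries, and fell in WT mice (-0.44, adjusted p = 0.0286; -0.14 in B-KO mice, adjusted p = 0.445). The difference between these values was 0.3 (adjusted p = 1). That WT call was lost without WT naive replicate 1 or 2 or WT GC replicate 1 or 3 (adjusted p = 0.0511 to 0.113). Among the 5 members on this list, 2 rose and 2 fell in WT, and 2 rose and 1 fell in B-KO mice, against 62% and 57.5% of all symbols called. The other listed hosts were absent or below the level threshold.

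E130102H24Rik, whose row contains miR-101a, had the largest fall of the members in WT mice. It was at 115, 77 and 79.2 in WT naive, 73.8, 87.8 and 94.1 in B-KO naive, 7.76, 3.58 and 13.9 in WT GC and 8.92, 18.1 and 9.6 in B-KO GC libraries. The 6 GC libraries all lay far below the 6 naive libraries. On the log2 scale the difference was -3.41 in WT (standard error 0.38, adjusted p = 2.26e-05) and -2.77 in B-KO mice (standard error 0.38, adjusted p = 0.000134).

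The largest rises included transcripts with little expression in naive B cells. Members with so low a naive level met the threshold of 20 RPKM only through their GC libraries, so a large rise is partly fixed by the selection, as a large fall is for members that are low in GC B cells. Gm15350 was at 0, 2.23 and 1.86 in WT naive, 9.98, 3.44 and 0.846 in B-KO naive, 55.1, 55.4 and 53.2 in WT GC and 28, 30.4 and 53.1 in B-KO GC libraries, with no overlap. The rises of Gm15350 were 4.73 in WT (standard error 0.59, adjusted p = 5.07e-05) and 3.03 in B-KO mice. It shares 38.2% of its exon bases with Atp11a, a phospholipid flippase gene on the opposite strand, which changed by 4.63. Gm15350 had 0 reads in WT naive replicate 1. Gm6525, a pseudogene, was at 1.77, 3.11 and 2.3 in WT naive, 3.31, 3.83 and 0.785 in B-KO naive, 50.6, 38 and 24 in WT GC and 44, 30.9 and 49.3 in B-KO GC libraries, and the 6 GC libraries were all above the naive ones. GC over naive gave a log2 fold change of 3.46 in WT (standard error 0.38, adjusted p = 2.17e-05) and 3.64 in B-KO mice (standard error 0.38, adjusted p = 2.87e-05). 2810408I11Rik, which overlaps Ccnyl1 on the opposite strand, was at 0.922, 3.64 and 8.54 in WT naive, 11.9, 7.47 and 5.52 in B-KO naive, 37.9, 51 and 23.4 in WT GC and 27, 37.5 and 48.5 in B-KO GC libraries. Its change of 3.06 in WT mice stood against 0.05 for Ccnyl1 (not called), and that of 2.08 in B-KO mice against 0.57 (called, adjusted p = 0.0247). Every GC library of 2810408I11Rik was above every naive one.

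Among the risers with no base in a coding exon, D430020J02Rik starts 241 bases from Ncapg2, a condensin subunit gene. It was at 8.96, 12 and 9.95 in WT naive, 17.4, 15.7 and 10.6 in B-KO naive, 90.8, 86.7 and 52.4 in WT GC and 73, 49.1 and 87.6 in B-KO GC libraries, with no overlap of the groups. This was a log2 fold change of 2.75 in WT (standard error 0.27, adjusted p = 9.87e-06) and 2.18 in B-KO mice (standard error 0.27, adjusted p = 6.88e-05). F730043M19Rik, 107 bases from the start of Atxn7l1, was at 10.6, 13.6 and 9.31 in WT naive, 22.8, 16 and 9.03 in B-KO naive, 80.4, 91.7 and 56.1 in WT GC and 49.1, 46.3 and 81.1 in B-KO GC libraries. All GC libraries were higher, and its log2 fold change was 2.65 in WT (standard error 0.32, adjusted p = 3.99e-05) and 1.86 in B-KO mice (standard error 0.32, adjusted p = 0.000574). Gm2447 was at 13.3, 14 and 17.4 in WT naive, 12, 18.5 and 14.3 in B-KO naive, 78.9, 75.9 and 68 in WT GC and 78.2, 57.6 and 80.2 in B-KO GC libraries. It had a narrow spread, and its log2 fold change was 2.25 in WT (standard error 0.18, adjusted p = 3.5e-06) and 2.2 in B-KO mice (standard error 0.18, adjusted p = 1.07e-05). A630023P12Rik was at 7.15, 13 and 11.4 in WT naive, 6.86, 11.6 and 10.2 in B-KO naive, 56.8, 61.1 and 33.4 in WT GC and 119, 34.9 and 70.5 in B-KO GC libraries. B-KO GC replicate 1 was the highest of its libraries, and its log2 fold changes were 2.15 and 2.71. Lockd (1190002F15Rik), a lncRNA that lies downstream of the cell cycle inhibitor gene Cdkn1b, was at 24.3, 29.7 and 43 in WT naive, 43.7, 50 and 26.3 in B-KO naive, 147, 149.6 and 114 in WT GC and 138, 111 and 141 in B-KO GC libraries, higher in every GC library. The log2 difference of GC over naive was 2.08 in WT (standard error 0.25, adjusted p = 3.61e-05) and 1.71 in B-KO mice (standard error 0.25, adjusted p = 0.000183).

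Other risers lie on the same strand as a coding gene. 6430706D22Rik, which had no match in the later annotation and lies in the span of Hjurp, which loads the centromeric histone, was the eighth highest member. It was at 200.03, 228 and 230.3 in WT naive, 317, 250.5 and 197 in B-KO naive, 1205, 1204 and 815 in WT GC and 963, 665 and 1108 in B-KO GC libraries. The GC libraries were all higher, with WT GC replicate 3 and B-KO GC replicate 2 lowest, and its log2 fold changes were 2.27 in WT and 1.83 in B-KO mice, near those of Hjurp (2.32 and 1.89). 6530402F18Rik, which shares 12.7% of its exon bases with Ntng2, a netrin gene, was at 17.4, 17.5 and 16.3 in WT naive, 38.8, 26.7 and 16.3 in B-KO naive, 93.4, 118 and 113 in WT GC and 107, 108 and 107 in B-KO GC libraries. All GC libraries were higher, with log2 fold changes of 2.59 and 2.02 against 2.79 and 2.07 for Ntng2.

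After E130102H24Rik the largest falls were in 9 other members. Gm11346, a pseudogene, was at 129, 156 and 139.5 in WT naive, 132, 155 and 159 in B-KO naive, 11.7, 13.9 and 16.6 in WT GC and 12.6, 28.9 and 15.8 in B-KO GC libraries. It was at least 4-fold lower in every GC library than in any naive one, and its log2 fold change was -3.25 in WT (standard error 0.24, adjusted p = 2.67e-06) and -2.97 in B-KO mice (standard error 0.24, adjusted p = 1.09e-05). Peg13, a lncRNA expressed from the paternal allele, was at 179, 167 and 133 in WT naive, 177, 168 and 167 in B-KO naive, 16.8, 16.2 and 32.6 in WT GC and 32.6, 37.9 and 19.9 in B-KO GC libraries, with no overlap. Its log2 fold change was -2.87 in WT (standard error 0.27, adjusted p = 8.29e-06) and -2.51 in B-KO mice (standard error 0.27, adjusted p = 3.3e-05). Gm4759, a pseudogene, was at 217, 209.5 and 246 in WT naive, 209, 212 and 179 in B-KO naive, 24.9, 28 and 53.3 in WT GC and 46.9, 74.7 and 30.3 in B-KO GC libraries. The GC libraries were all lower, with B-KO GC replicate 2 the nearest to naive, and the log2 fold changes were -2.7 and -2.05. Gm15408 was at 61.3, 84.2 and 62.5 in WT naive, 44.6, 54.3 and 64 in B-KO naive, 8.0, 8.0 and 15.9 in WT GC and 8.34, 23.6 and 9.11 in B-KO GC libraries, lower in every GC library, with log2 fold changes of -2.65 and -2.05. I730030J21Rik was at 135, 144 and 86.5 in WT naive, 108, 104 and 117 in B-KO naive, 16.9, 16.5 and 22.8 in WT GC and 23.3, 23.6 and 18.5 in B-KO GC libraries, lower in every GC library, with log2 fold changes of -2.62 and -2.28.

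AW011738 has a coding transcript of its own in GENCODE and is called noncoding only by the record type of the table. It was at 64.9, 65.4 and 34.7 in WT naive, 51.5, 48.4 and 39.7 in B-KO naive, 6.65, 5.52 and 21.2 in WT GC and 20.5, 10.5 and 6.71 in B-KO GC libraries. WT GC replicate 3 and B-KO GC replicate 1 were the highest of the GC libraries, and the log2 fold changes were -2.38 (standard error 0.48) and -1.93. Gm15133 was at 42.1, 42.1 and 39.9 in WT naive, 31.6, 41.2 and 53.9 in B-KO naive, 6.32, 5.76 and 12.6 in WT GC and 10.8, 19 and 8.37 in B-KO GC libraries, lower in every GC library, with log2 fold changes of -2.28 and -1.7. H2-Q5 is a class I histocompatibility gene of the Q region, and reads shared with its close relatives make its level uncertain. It was at 556, 697 and 541 in WT naive, 715, 567 and 573 in B-KO naive, 119.7, 138 and 185 in WT GC and 198, 318 and 187 in B-KO GC libraries, with log2 fold changes of -2.02 (adjusted p = 1.52e-05) and -1.43. The related pseudogene H2-K2, chosen after its values were seen, was at 512, 533 and 469 in WT naive, 558, 458 and 519.8 in B-KO naive, 126, 119 and 246 in WT GC and 154, 245 and 130.1 in B-KO GC libraries, with log2 fold changes of -1.7 and -1.58. Both were lower in every GC library. AW112010, an interferon-responsive transcript also chosen after its values were seen, was at 269.7, 269 and 336 in WT naive, 320.1, 321 and 351 in B-KO naive, 86.3, 106 and 120.3 in WT GC and 142, 182 and 121 in B-KO GC libraries, with log2 fold changes of -1.48 and -1.17. In contrast, Norad (2900097C17Rik), which binds Pumilio proteins and was likewise added, was at 38, 42 and 38.2 in WT naive, 43.5, 40 and 41.6 in B-KO naive, 36.2, 40.6 and 35.5 in WT GC and 31.1, 41.6 and 38.7 in B-KO GC libraries. Its groups overlapped, and its log2 fold changes were -0.07 and -0.17 (adjusted p = 0.601 and 0.223).

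**Figure D4:**
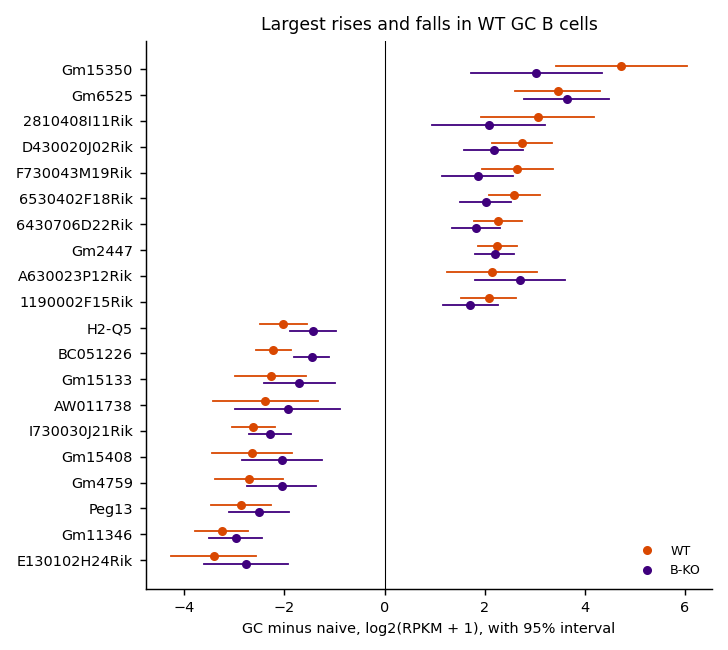
Log2 difference of GC minus naive B cells with its 95% interval for the 10 members with the largest rise and the 10 with the largest fall among those called in WT mice, for WT and B-KO mice. All 20 lay on the same side of 0 in both genotypes, from 4.73 for Gm15350 to -3.41 for E130102H24Rik in WT mice.

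By class, the 34 pseudogenes had 11 rises and 8 falls in WT and 11 and 6 in B-KO mice, where all symbols had 31.7% higher and 30.2% lower in WT and 30% and 27.5% in B-KO mice. The 87 members that RefSeq calls lncRNA and that have no base in a coding exon had 19 rises and 39 falls in WT mice (median -0.21) and 19 and 37 in B-KO mice. In this subset, where no coding exon overlaps, 66.7% were called in WT mice, near the 62% of all symbols.

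Members that overlap a coding gene mostly moved with it. Of 67 members with at least 10% of their exon bases in coding exons on the opposite strand, 41 were called in WT mice, 35 together with their partner and 33 in its direction, and 58 had the partner's sign (r = 0.83 across pairs). In B-KO mice, 35 were called, 30 with their partner and 29 in its direction. Of all symbols, 62% were called in WT and 57.5% in B-KO mice, so the share of these members called was near the background. Since strand is not stated to be used, the same reads can count for both, and these pairs are a description. The opposite pairs in WT mice, named after their values were seen, were 4933439C10Rik with Zkscan17 (-0.41 and 0.58) and 9330151L19Rik with Dnaaf2 (-0.94 and 0.62). Of 7 members on the same strand as their partner, all 7 were called with it and 6 in its direction. ChkbCpt1b was the other one, at -0.30 against 0.55 for Cpt1b.

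Examples chosen after their values were seen included partners of known regulators. Gm15441, Bach2os and Zeb2os are antisense to their partners, while Chaserr lies beside its partner and Gm12669 in the span of its partner. Gm15441 shares 36.7% of its exon bases with Txnip, an inhibitor of thioredoxin. Gm15441 was at 860.4, 937 and 1021 in WT naive, 726, 816 and 907 in B-KO naive, 229, 232 and 529 in WT GC and 286, 483 and 227 in B-KO GC libraries, lower in every GC library, with log2 fold changes of -1.62 (adjusted p = 0.00115) and -1.36 against -1.63 and -1.35 for Txnip. Bach2os is antisense to Bach2, a repressor that delays plasma cell differentiation. Bach2os was at 83.2, 87.3 and 85.1 in WT naive, 90.5, 90 and 79.5 in B-KO naive, 166, 151 and 176 in WT GC and 139.8, 132 and 147 in B-KO GC libraries, higher in every GC library, with log2 fold changes of 0.94 and 0.68 against 0.91 and 0.64 for Bach2. Zeb2os is antisense to Zeb2, a transcriptional repressor. Zeb2os was at 42.3, 30 and 45.4 in WT naive, 25.3, 37.8 and 44 in B-KO naive, 9.04, 9.77 and 15.2 in WT GC and 13.7, 25.2 and 9.66 in B-KO GC libraries, lower in every GC library, with log2 fold changes of -1.72 and -1.16 against -1.74 and -1.36 for Zeb2. The B-KO value of Zeb2os was -1.75 with B-KO GC replicate 3 alone, the lowest of its group. Chaserr (1810026B05Rik), which in mouse represses its neighbour Chd2, a chromatin remodeller, was at 128, 116 and 118 in WT naive, 109.7, 119 and 118 in B-KO naive, 61, 71.8 and 77.5 in WT GC and 67.9, 75.3 and 70.4 in B-KO GC libraries. It fell with Chd2, by 0.78 on the log2 scale in WT mice against -1.60 for Chd2. Gm12669, a pseudogene in the span of Glrx3, was at 35.1, 36.5 and 48.6 in WT naive, 52.5, 47.4 and 40.1 in B-KO naive, 141, 179 and 135 in WT GC and 210.4, 129.7 and 174 in B-KO GC libraries, with a log2 fold change of 1.9 against 1.93 for Glrx3.

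Members that start beside a coding gene in the other direction share no counted bases with that gene in 20 pairs. The examples below were taken from all 47 divergent pairs with a tested partner, so they need not be among these 20. The promoters of 3 pairs are shown in full as RefSeq promoter records (GRCm38.p6, 250 bases before the start to 50 from it on, transcript strand of the noncoding member), with the bases between the starts of the noncoding and the coding gene in capitals. They were picked, after values were seen, as a pair that rose together (D430020J02Rik with Ncapg2, chr12:116405112-116405411 (minus strand)), another (4933421O10Rik with Ube2j1, an endoplasmic reticulum ubiquitin-conjugating enzyme gene, chr4:33031274-33031573 (minus strand)), and a pair that moved apart (Fam120aos with Fam120a, chr13:48967862-48968161 (plus strand)).
D430020J02Rik: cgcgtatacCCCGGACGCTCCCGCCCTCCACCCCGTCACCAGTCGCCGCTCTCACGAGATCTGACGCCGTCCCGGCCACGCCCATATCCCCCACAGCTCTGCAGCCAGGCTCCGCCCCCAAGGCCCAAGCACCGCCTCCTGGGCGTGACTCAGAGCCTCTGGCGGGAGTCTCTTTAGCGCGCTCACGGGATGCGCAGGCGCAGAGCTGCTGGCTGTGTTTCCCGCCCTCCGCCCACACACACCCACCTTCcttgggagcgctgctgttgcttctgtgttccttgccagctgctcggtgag
4933421O10Rik: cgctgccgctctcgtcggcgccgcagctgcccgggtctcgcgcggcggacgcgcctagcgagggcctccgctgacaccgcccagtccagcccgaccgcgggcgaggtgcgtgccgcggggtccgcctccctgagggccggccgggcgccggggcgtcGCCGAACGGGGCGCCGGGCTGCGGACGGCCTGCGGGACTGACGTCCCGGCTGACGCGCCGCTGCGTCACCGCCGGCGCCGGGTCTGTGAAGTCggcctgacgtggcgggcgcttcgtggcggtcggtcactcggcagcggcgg
Fam120aos: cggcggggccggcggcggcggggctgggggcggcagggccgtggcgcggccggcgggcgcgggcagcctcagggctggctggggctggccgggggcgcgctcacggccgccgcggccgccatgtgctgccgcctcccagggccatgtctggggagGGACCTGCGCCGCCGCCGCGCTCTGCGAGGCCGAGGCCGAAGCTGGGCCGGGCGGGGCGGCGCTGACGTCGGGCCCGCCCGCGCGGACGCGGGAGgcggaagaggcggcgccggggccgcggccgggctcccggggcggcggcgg
The starts were 241, 93 and 95 bases apart. The windows were 68.0%, 80.3% and 86.7% GC with 26, 57 and 54 CpG dinucleotides, against medians of 52.7% and 7 over all promoters of the table.

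Of the 20 divergent pairs with no shared exons, 13 members were called in WT mice, 8 together with the coding gene and all 8 in its direction, while 5 were called alone. In B-KO mice 14 were called, 9 with the coding gene and all 9 in its direction. The background was again 62% and 57.5% of all symbols called. Over all 47 divergent pairs with a tested partner, 21 pairs were called on both sides in WT mice, of which 16 moved together and 5 apart. D430020J02Rik and Ncapg2 rose by 2.75 and 3.70 on the log2 scale. 4933421O10Rik was at 9.37, 10.5 and 10.5 in WT naive, 11.5, 13.2 and 12.2 in B-KO naive, 31.9, 32.1 and 28.1 in WT GC and 33.1, 26.9 and 34.5 in B-KO GC libraries, higher in every GC library, and rose by 1.51 against 1.52 for Ube2j1. Fam120aos was at 63.8, 61.2 and 59.8 in WT naive, 47.1, 55.1 and 57.9 in B-KO naive, 30.8, 34.4 and 26.9 in WT GC and 31.7, 28.2 and 40.1 in B-KO GC libraries, lower in every GC library. It fell by 0.99 in WT and 0.67 in B-KO mice, while Fam120a rose by 0.79 and 0.60. The B-KO value of Fam120aos was -0.40 with B-KO GC replicate 3 alone, the highest of its group. 2610507I01Rik, which starts 55 bases from the mitochondrial ribosomal protein gene Mrpl55, was at 54.5, 53.5 and 51 in WT naive, 56.7, 53.7 and 49.7 in B-KO naive, 14.5, 15.4 and 18 in WT GC and 15.8, 19.3 and 18.1 in B-KO GC libraries. It fell by 1.68 where Mrpl55 rose by 0.43. BC051226, 236 bases from the histone chaperone gene Daxx, was at 67.7, 68.6 and 83.9 in WT naive, 56.5, 62.5 and 80.6 in B-KO naive, 14.9, 15.2 and 14.6 in WT GC and 25.1, 26.7 and 18.9 in B-KO GC libraries, lower in every GC library. It fell by 2.22 (standard error 0.16, adjusted p = 2.52e-06) while Daxx was at 0.00 (adjusted p = 0.992).

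**Figure D5:**
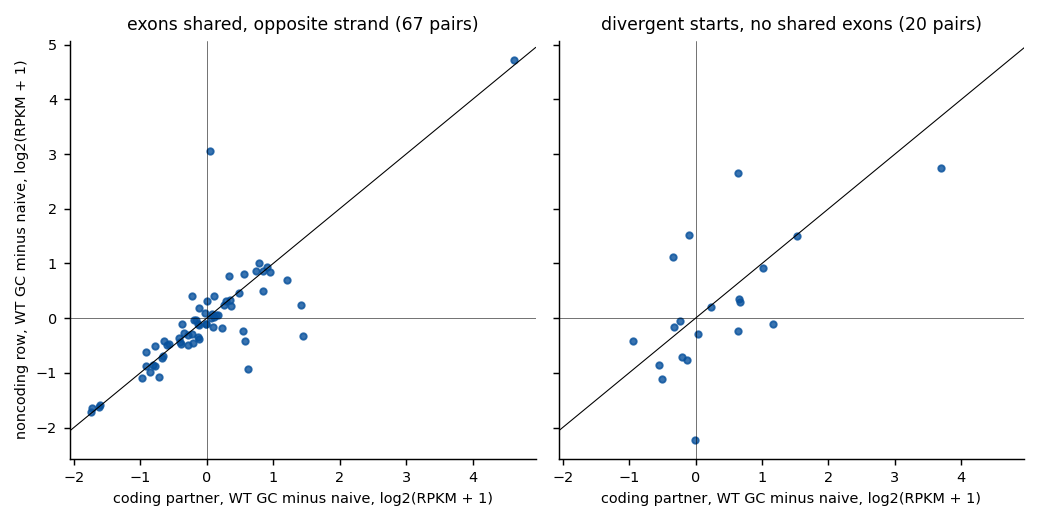
Log2 difference of WT GC minus WT naive for each member (y axis) against its coding partner (x axis), for 67 pairs with shared exons on opposite strands (left) and 20 divergent pairs with no shared exons (right), with 1 point per pair and a line of equality. Most points of the antisense pairs lay near the line (r = 0.83 across pairs), and r was 0.63 across the divergent pairs.

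Between genotypes no member was called. In naive B cells 0 of the 253 members passed by limma (background 0.0146% of all symbols). An unadjusted p under 0.05 was found for 7 members, against 4.55% of all symbols. In GC B cells 0 passed (background 0.0073%), and 12 had an unadjusted p under 0.05, against 5.66% of all symbols. Testing whether the effect of genotype differed between cell types gave 0 (background 0.0219%). At an unadjusted p under 0.05 there were 8, against 3.37% of all symbols. Voom on the recovered reads also called 0 members in each. The libraries of the genotypes lay apart for 18 members in naive (8 higher in B-KO mice, 10 lower) and 26 in GC B cells (18 higher, 8 lower), against 9.38% and 9.29% of all symbols. The plasma cell and the red cell marker sums given above lay apart between the naive genotypes as well. Of the plasma cell markers, Igj, Xbp1 and Prdm1 lay apart there, and Sdc1 and Irf4 overlapped. The part of these markers in the genotype values was not tested. The 95% interval of the log2 fold change lay within 1 of 0 for 238 members in naive B cells, for 233 in GC B cells and for 210 when the difference was taken. On the log2(RPKM + 1) scale, which understates changes of low members, a 2-fold genotype difference was therefore outside the interval for most members. The genotype comparisons use the same libraries as the GC comparisons above.

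Gm15987 had the smallest p of the members in both cell types. It was at 277, 301 and 316 in WT naive, 375, 386 and 345 in B-KO naive, 76.1, 66 and 77.1 in WT GC and 105, 133 and 103 in B-KO GC libraries. In each cell type every B-KO library was above every WT library. The log2 fold change of B-KO over WT was 0.31 in naive (unadjusted p = 0.013, adjusted p = 0.97) and 0.62 in GC B cells (standard error 0.10, unadjusted p = 9.7e-05, adjusted p = 0.163), and it ranged from 0.51 to 0.69 in GC B cells over 25 alternatives, with adjusted p of 0.0984 to 1. Gm15987 also fell in GC B cells, by 2.01 in WT and 1.7 in B-KO mice. Neither genotype value passed the threshold.

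The other members of smallest p in naive B cells were 2210414B05Rik, Gm6644 and 2810002D19Rik. 2210414B05Rik was at 12.1, 12.2 and 10.3 in WT naive and 15.6, 20.8 and 21.5 in B-KO naive libraries, with no overlap (0.69, adjusted p = 0.995). Gm6644, a pseudogene in the span of Akr1b3, was at 51.6, 56.7 and 59.8 against 69, 68.6 and 61.7 (0.24, adjusted p = 1). 2810002D19Rik was at 73.8, 61 and 82.3 against 38, 59.8 and 61.5 (-0.46, adjusted p = 1). In GC B cells 9330175E14Rik was at 6.6, 10.1 and 5.06 in WT and 12.3, 17.2 and 12.8 in B-KO libraries (0.9, adjusted p = 0.534). BC051226 was at 14.9, 15.2 and 14.6 against 25.1, 26.7 and 18.9 (0.62, adjusted p = 0.538). Gm2848 was at 29, 31.4 and 27.4 against 41.6, 37.4 and 35.1 (0.37, adjusted p = 0.538). Every B-KO library was above every WT one for these 3, and none passed the test.

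No difference of the genotype effect between cell types passed after adjustment. The 5 members with the largest were Gm15350 (-1.69, standard error 0.84), 2810408I11Rik (-0.98, standard error 0.73), Rn45s (-0.93, standard error 0.74), 1700048O20Rik (-0.82, standard error 0.58) and 9330175E14Rik (0.82, standard error 0.32), with an adjusted p of 1 in each. 1700048O20Rik was at 31, 51.8 and 21.8 in WT naive, 57.8, 49.2 and 40.2 in B-KO naive, 32.1, 44.7 and 18.1 in WT GC and 34.3, 13.6 and 30.7 in B-KO GC libraries, and its genotypes overlapped in both cell types. Of the transcripts with the highest levels, Malat1 and Neat1 changed by -0.1 and 0.13 between the genotypes in GC B cells, each with a standard error of 0.31 and 0.33.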

How the data were processed

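RNA-seq of 12 libraries was analysed from the table the authors deposited. They aligned reads with STAR (2.2.0c in the submitters' processing notes, which list HOMER without a version and both mm9 and mm10) and computed RPKM per RefSeq transcript, and the table gives mm10 positions. The labels name total RNA while the methods describe poly-A RNA. The deposited RPKM values are scaled to a total of 10000000 per library, so values times length in kilobases sum to that total. Reads worked back from each value and its length were whole within 0.1 for 100% of the values checked.

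The row with the highest mean represented each symbol, and 13704 symbols with at least 1 RPKM in at least 3 libraries were tested, all 253 members among them. limma (3.58.1, R 4.3.3) modelled log2(RPKM + 1) over all 12 libraries as 4 group means, with limma's trend option and 8 residual degrees of freedom, and p-values were adjusted by Benjamini-Hochberg over all symbols tested. Intervals are 95% limma intervals. No test was applied to lists. The script was tested on simulated data. Annotation, promoters and microRNAs came from RefSeq (GRCm38.p6) and GENCODE.

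Members given in full were the 8 highest, the 10 largest rises and 10 largest falls among members called in WT GC against WT naive, the 4 of smallest p in each genotype comparison where none was called, the 5 largest differences of the genotype effect, and all members of the snoRNA host, microRNA host, nuclear and structural RNA lists. A further 11 were added after their values were seen. The members and lists were chosen with earlier results of these data known.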

Additional observations from a re-analysis of the deposited data

How the results depend on the processing

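The number of members called in WT GC against WT naive was 154 and ranged from 136 to 158 when each library was left out and was at most 160 under the other alternatives (pseudocounts of 0.1 and 5, filters, library scaling, the longest transcript, voom), with the fewest for the compared groups alone. In B-KO mice it was 143, and ranged from 121 to 151 and from 130 to 150. Of the main calls, at least 133 and 118 were shared with any alternative. In the genotype comparisons it stayed at 0. Of all 13704 symbols, 7584 to 8544 were called in WT GC against WT naive when each library was left out. In B-KO mice the same range was 6982 to 8182. A level threshold of 10 or 40 RPKM gave 342 or 159 members.

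Of 3070 values of named members compared with an alternative, 2991 kept their direction and side of the threshold, 40 lost and 26 gained a call, and 13 changed sign, none of which was called. These were Gm11974 in WT (-0.32 to 0.057 leaving out a library) and B-KO mice (-0.39 to 0.12), and in B-KO mice Rn45s (-0.69 to 0.60), Snhg8 (-0.28 to 0.015) and Mir22hg (-0.023 to 1.13). The cause was not tested. In 3 alternatives chosen after seeing the data, Mir22hg was -0.12 with Y-linked expression as a covariate and -0.079 without the 3 libraries with Y-linked reads (1 B-KO GC library left), 5830416P10Rik was 0.013 without these, and Rn45s and Mir22hg were 0.0073 and -0.023 without WT GC replicate 3 and B-KO GC replicate 2.

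With the replicate number as a block, 151 members were called in WT and 136 in B-KO mice, and 0 in the genotype comparisons. The background of the GC comparisons was then 8122 and 7534 of all 13704 symbols. The labels do not say that the numbers pair the samples. Of 18 correlations between same-numbered libraries, from -0.57 to 0.15, 1 was over 0.1, and 13 of 36 best matches had their own number. With 3 libraries per group, these values do not show a pairing and cannot exclude one. Reads limit the low members, since 85 had fewer than 100 reads in some library.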
